A study of Homo sapiens with 22 samples.

Results

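The genes described here are the 70, of 34679 in the count table, whose symbol is MRPL or MRPS followed by a number and in some cases a letter A to C. They encode proteins of the mitochondrial ribosome (mitoribosome). Of these proteins 45 belong to the large subunit and 24 to the small subunit. The last, MRPS36, carries a mitoribosomal symbol but is now known as a subunit of the 2-oxoglutarate dehydrogenase complex of the citric acid cycle. MRPS30 and MRPS18A are named after the small subunit and sit in the large one. By ancestry, 43 members are classed as having a homologue in bacterial ribosomes and 26 as mitochondria-specific. The latter were added to the ribosome after the bacterial endosymbiont became an organelle. MRPS18A and MRPS18B are classed with the latter, whereas their paralogue MRPS18C is classed with the former. In 12 members, mutations cause inherited mitochondrial disease.

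The mitoribosome translates the mRNAs of the mitochondrial genome, all of which encode subunits of the respiratory chain and of ATP synthase. Its RNAs are transcribed inside the organelle, whereas every one of its proteins is encoded in the nucleus, made in the cytosol and imported. Neurons draw most of their ATP from oxidative phosphorylation, so mitochondrial translation matters to them in particular, and damage to complex I is a long-studied feature of Parkinson disease.

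The cells were LUHMES, a human mesencephalic line held in division by a switchable oncogene and differentiated into neurons with dopaminergic features. They were wild type or overexpressed alpha-synuclein, the main protein of Lewy bodies, and were left untreated or given 6-hydroxydopamine (6-OHDA), a dopamine analogue that is taken up by dopaminergic cells and oxidises. These 4 groups (untreated wild type, 6-OHDA wild type, untreated alpha-synuclein, 6-OHDA alpha-synuclein) had 4 libraries each. A further 3 libraries each came from alpha-synuclein cells given 6-OHDA with quercetin, a plant flavonol, or with rutin, its glycoside. The promoter behind alpha-synuclein and the doses and durations of every agent are not stated in the labels, and nothing says that libraries of a group came from separate cultures. The p-values therefore measure the spread between these libraries, which may be technical.

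Polyadenylated RNA was sequenced to totals of 1.87 to 20.67 M estimated counts per library, of which the members took 3998 to 41079 counts, or 0.180% to 0.219%. Depth differed between groups. The 6-OHDA wild-type libraries held 12.6, 3.12, 2.04 and 1.87 M, and the untreated wild-type libraries 6.11 to 10.6 M. Untreated alpha-synuclein libraries held 8.11 to 20.67 M and those given 6-OHDA alone 2.52 to 18.6 M. Levels are CPM, counts per M counts of the TMM-scaled library size, and 3 counts corresponded to 0.168 to 1.49 CPM. All 10 neuronal markers were above 1 CPM in every group, with a summed level of 11340 to 12535 CPM in untreated and 4842 to 5325 CPM in 6-OHDA wild-type cells, and 9483 to 11792 CPM and 5066 to 6985 CPM in alpha-synuclein cells. After 6-OHDA 9 of these 10 markers fell in wild-type and 7 in alpha-synuclein cells, and their part in the results below was not tested. Of 9 dopaminergic markers 8 were above 1 CPM in both untreated groups, and ALDH1A1 was listed at 0 there. The dopaminergic sum went from 430 to 484 CPM down to 194 to 211 CPM in wild-type, and from 399 to 509 CPM down to 112 to 143 CPM in alpha-synuclein cells, with 5 and 6 of the markers above 1 CPM after 6-OHDA. The part of this shift in the 6-OHDA results was not tested either. Summed levels were 43.9 to 59.1 CPM for 6 astrocyte, 76.2 to 86.1 CPM for 6 oligodendrocyte (MAG at 0) and 14.9 to 19.5 CPM for 6 fibroblast markers in untreated wild-type cells, and 69.4 to 100.3 CPM for 8 markers of dividing cells. After 6-OHDA these sums were 33.8 to 52.9, 35.99 to 67.1, 22.1 to 24.9 and 36.7 to 50.7 CPM. In bulk RNA such as this, fewer cells of a type and less RNA per cell cannot be told apart. Lane and barcode numbers are read here from parts of the library names, which do not explain them. On this reading lane 1 carried the untreated libraries and the 6-OHDA wild-type libraries (12) and lane 2 the remaining 10. Replicate 4 of 6-OHDA alpha-synuclein cells stood apart from the other treated libraries on the first principal component (-1.47, against 35.8 to 45.3), and 2 libraries of untreated alpha-synuclein cells carry 4 barcode numbers in their names.

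Before the values, the stretches around the start sites of 4 genes are shown, picked for their 6-OHDA changes. MRPL18 rose in both genotypes, and MRPS30 and MRPL42 had the largest falls in wild-type cells. MRPS12 rose in wild-type cells with a change that differed between the genotypes. Each run covers 250 bases before and 30 bases from the start site, 5′ to 3′, from RefSeq on GRCh38.p14 (plus strand). Capitals mark AAGATGGC, a match to the YY1 motif, and CCGGAAG, a match to the ETS motif, on either strand.
MRPL18 chr6:159789562-159789841: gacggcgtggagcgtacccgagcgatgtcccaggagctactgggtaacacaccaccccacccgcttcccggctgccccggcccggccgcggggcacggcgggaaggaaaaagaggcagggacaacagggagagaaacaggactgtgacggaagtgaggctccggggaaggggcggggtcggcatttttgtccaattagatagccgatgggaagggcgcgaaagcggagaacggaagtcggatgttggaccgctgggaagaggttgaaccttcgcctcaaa
MRPS30 chr5:44808697-44808976: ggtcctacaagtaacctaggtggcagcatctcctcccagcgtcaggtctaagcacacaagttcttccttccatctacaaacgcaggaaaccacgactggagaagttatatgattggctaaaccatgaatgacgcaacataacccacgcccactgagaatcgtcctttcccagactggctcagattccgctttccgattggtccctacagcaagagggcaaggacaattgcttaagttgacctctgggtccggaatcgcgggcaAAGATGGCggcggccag
MRPL42 chr12:93467264-93467543: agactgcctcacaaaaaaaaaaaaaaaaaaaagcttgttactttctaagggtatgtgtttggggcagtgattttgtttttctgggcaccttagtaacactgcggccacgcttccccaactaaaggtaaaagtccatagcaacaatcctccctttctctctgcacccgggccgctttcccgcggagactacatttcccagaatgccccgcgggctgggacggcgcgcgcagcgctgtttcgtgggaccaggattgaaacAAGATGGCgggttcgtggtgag
MRPS12 chr19:38930694-38930973: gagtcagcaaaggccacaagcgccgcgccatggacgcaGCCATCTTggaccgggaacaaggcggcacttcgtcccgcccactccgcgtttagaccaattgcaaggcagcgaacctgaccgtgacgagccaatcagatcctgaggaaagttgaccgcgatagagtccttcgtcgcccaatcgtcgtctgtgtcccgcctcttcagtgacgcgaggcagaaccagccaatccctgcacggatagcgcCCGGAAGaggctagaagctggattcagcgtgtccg
In MRPS30 and MRPL42 the YY1 match lay just inside the transcript, at positions 14 to 21 and 9 to 16 counted from 1 at the first transcribed base. In MRPS12 an ETS match spanned the start site, from -5 to 2, and a YY1 match on the other strand lay at -212 to -205. The MRPL18 run held neither, though another of its 3 RefSeq windows held CCGGAAG. Both motifs were common around the start sites of the members, of which 61 had at least 1 RefSeq window (250 bases before to 50 after a start). CCGGAAG was found in 41.3% of 75 member windows and in 10.3% of all 35116 windows. AAGATGGC was found in 28% of member windows and 2.89% of all windows. Among members with a window, CCGGAAG was found in 5 of 11 that rose in wild-type cells and 5 of 14 that fell, and AAGATGGC likewise in 5 of 11 and 5 of 14. The 4 genes and the motifs named were chosen after their values were seen, from 17 patterns searched on both strands, and the end of CCGGAAG is also the start of AAGATGGC, so that matches to both can share letters. A match describes letters only.

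In untreated wild-type cells 1 member stood well above the rest. MRPL42, a mitochondria-specific protein of the large subunit, was at 251, 218, 258 and 272 CPM. Per kilobase, by the median length of annotated coding transcripts, it was also first, at 271 CPM per kb. MRPL49 followed at 123.2 CPM per kb, then MRPL28 (95.3), MRPS21 (86.2) and MRPS34 (80.9). This order rests on the length chosen: for MRPL42 that median is 920 bases, while its exons together cover 16393 bases. Of the 70 members 13 had a mean of 50 CPM or more, 35 lay between 10 and 50 CPM and 22 were below 10 CPM, with a median of 19.5 CPM. At the low end, MRPL45 was listed at 0 in all libraries while rows named as its pseudogenes held 2183 counts. MRPS18B held 80 counts and MRPS9 158 counts over all libraries. These 3 did not pass the filter on low counts, so 67 members were tested. Estimated counts divide reads among similar transcripts, so members with abundant pseudogenes are uncertain: 31 members have pseudogene rows, which took 58.4% of the joint counts for MRPS31 and 86.6% for MRPS17. A further uncertainty is antisense overlap, present for 28 members, because the labels do not say whether counting used strand. Exons of 15 members overlap another gene on the same strand, among them MRPL28, MRPL42, MRPS5 and MRPS16. Counting by strand would not separate these.

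The first comparison asked how 6-OHDA changed these genes in wild-type cells, within lane 1. The members moved in both directions: 14 of 67 rose and 16 fell, while 52% of all 16601 tested genes were called, 25.8% higher and 26.2% lower. Calls are at a Benjamini-Hochberg adjusted p under 0.05 in edgeR's quasi-likelihood test over all genes, and fold changes are log2 ± SE. The median change was 0.13 in the members and 0.07 over all genes. Changes were moderate, with 3 of 67 members beyond 1 in size, against 3854 of all 16601 genes. Of the 30 calls 9 were under 0.5, against 1713 of 8634 calls over all genes. The libraries of both groups did not overlap for 24 members (10 higher, 14 lower), against 45% of all genes.

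MRPL18 (ENSG00000112110.10, chromosome 6, 159789812 to 159798436, plus strand) had the largest rise. It encodes a protein of the central protuberance of the large subunit, and under heat shock a shorter form of it is known to join cytosolic ribosomes. Its levels were 4.08, 6.02, 3.92 and 3.24 CPM in the untreated and 18.1, 14.2, 21.4 and 14.9 CPM in the 6-OHDA libraries. No treated library came near the untreated range, and the mean went from 4.32 CPM ± 1.19 to 17.2 CPM ± 3.29 (SD, n = 4), a log2 change of 2.01 ± 0.23 (adjusted p = 1.76e-07).

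Small subunit proteins made up 8 of the 14 risers. MRPS12, which lines the decoding centre, measured 16.0, 23.5, 17.9 and 18.3 CPM untreated and 31.4, 28.1, 29.3 and 30.3 CPM after 6-OHDA, with no overlap and a change of 0.66 ± 0.12 (adjusted p = 0.000106). MRPS2, a disease gene whose protein lies at the mRNA path, measured 14.5, 15.5, 9.34 and 11.4 CPM untreated and 25.1, 23.6, 29.3 and 15.4 CPM treated. The lowest treated MRPS2 library fell within the untreated range, and the change was 0.90 ± 0.18 (adjusted p = 0.00029). MRPS28, also a disease gene, changed by 0.77 ± 0.18, MRPL2 by 0.53 ± 0.15 and MRPS16 by 0.62 ± 0.18.

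The largest fall was that of the member with the highest CPM. MRPL42 (ENSG00000198015.13, chromosome 12, 93467488 to 93516213, plus strand) went from a mean of 249.6 CPM ± 22.9 to 115.9 CPM ± 14.6 (SD, n = 4). The treated libraries, at 115.6, 97.7, 117 and 133 CPM, all lay below the untreated ones, with a change of -1.11 ± 0.13 (adjusted p = 1.93e-07). Its share of all member CPM went from 11.7% ± 1.37 to 5.86% ± 0.628. MRPS30 (ENSG00000112996.11, chromosome 5, 44808925 to 44820428, plus strand), a mitochondria-specific protein of the large subunit despite its symbol, stood at 65.2, 63.5, 77.4 and 81.8 CPM untreated and 36.2, 37.5, 32.1 and 33.8 CPM treated. The groups were far apart, and the change was -1.03 ± 0.15 (adjusted p = 5.30e-06).

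The next falls were smaller. MRPL39, a mitochondria-specific large subunit protein and disease gene, went from 24.5, 23.2, 24.5 and 28.6 CPM to 15.1, 13.3, 16.3 and 13.4 CPM without overlap (-0.79 ± 0.14, adjusted p = 4.36e-05). MRPL13 changed by -0.89 ± 0.17, MRPS14 by -0.79 ± 0.16, MRPS27, a pentatricopeptide repeat protein of the small subunit, by -0.58 ± 0.11, and MRPS31 by -0.60 ± 0.12. MRPS31 carries the pseudogene uncertainty given above.

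**Figure D1:**
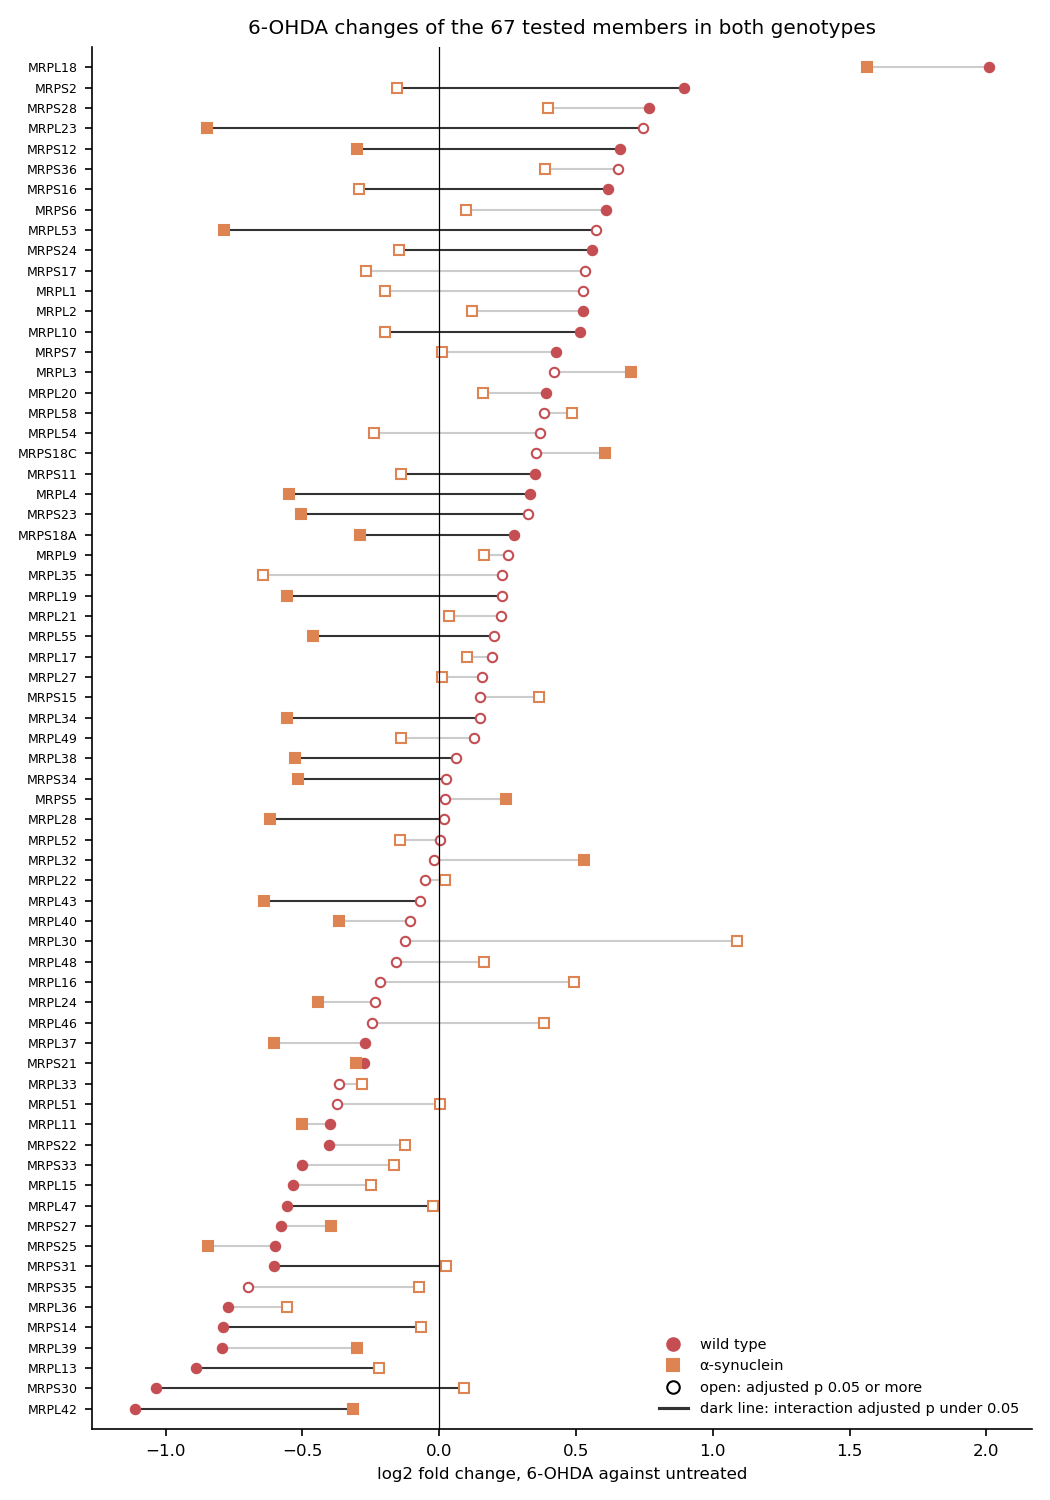
Log2 fold change by 6-OHDA (x axis) of the 67 tested members (y axis, ordered by the wild-type change), with circles for wild-type and squares for alpha-synuclein cells. Filled symbols had an adjusted p under 0.05 and dark lines join members whose interaction had one: MRPL18 lies at 2.01 and 1.56 on the right, MRPL42 at -1.11 and -0.32 at the bottom, and 3 members have filled symbols on opposite sides of 0.

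By ancestry, of 42 tested members with bacterial homologues 13 rose and 7 fell (median 0.23), whereas of 24 mitochondria-specific members 1 rose and 9 fell (median -0.20). The single riser among the latter was MRPS18A (0.27), whose paralogue MRPS18C is classed with the bacterial homologues, so this count rests on the classing chosen. By subunit, 6 large subunit members rose and 9 fell, and 8 small subunit members rose and 7 fell. By site, all 4 tested proteins of the decoding and mRNA path had positive changes, with MRPS12, MRPS2 and MRPS24 called. Positive and negative changes numbered 1 and 4 at the tunnel exit, 3 and 3 in the central protuberance and 3 and 1 in the stalk region. Over all 16601 genes 8880 changes were positive. In alpha-synuclein cells the decoding and mRNA path had 1 positive and 3 negative changes. The difference between these classes was not tested.

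The direction of these counts depends on the scaling between libraries. Scaled by library totals alone, the median of all genes moved by 0.28 and the wild-type split became 31 higher and 7 lower. MRPL18, MRPS12, MRPS2, MRPS28, MRPL42, MRPS30, MRPL39 and MRPS31 kept their direction and call there, and 21 of the 30 calls did in all. The share of all counts in the members rose from 0.188% ± 0.00564 to 0.209% ± 0.00740, while their TMM-scaled sum went from 2148 CPM ± 113.5 to 1974 CPM ± 69.2.

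The same treatment was next compared in alpha-synuclein cells, where treated and untreated libraries lie on different lanes, so that lane and treatment cannot be told apart. Here most called members fell: 5 of 67 rose and 22 fell, with 47.1% of all genes called, 22.9% higher and 24.2% lower. The median change was -0.15 in the members and 0.05 over all genes. The libraries of both groups did not overlap for 1 higher and 17 lower members, against 39.1% of all genes. Both subunits took part, with 3 higher and 16 lower in the large and 2 higher and 6 lower in the small subunit. No mitochondria-specific member rose and 12 of 24 fell, against 5 and 10 of 42 members with bacterial homologues. Scaled by library totals alone the split was 15 higher and 7 lower, 12 of the 27 calls were kept, and none turned. MRPL28, flat in wild-type cells here (0.02), was called higher there under library totals (0.30).

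MRPL18 was again the strongest riser, from 3.71, 4.89, 5.20 and 5.09 CPM to 14.1, 17.2, 18.1 and 9.20 CPM (1.56 ± 0.21, adjusted p = 2.44e-06). All treated libraries exceeded the untreated ones, and the lowest was replicate 4, the library that stood apart. MRPL3, a disease gene whose protein reaches toward the peptidyl transferase centre, measured 16.6, 13.0, 21.1 and 13.1 CPM untreated and 33.7, 18.7, 30.5 and 20.8 CPM treated. Those ranges overlapped, and the change was 0.70 ± 0.16 (adjusted p = 0.00136). MRPS18C, MRPL32 and MRPS5 rose by 0.61, 0.53 and 0.24, each with overlapping libraries. These 3 calls rest on single libraries: MRPS18C lost its call without untreated replicate 3 (0.50) or treated replicates 1 (0.58) or 2 (0.50), MRPL32 without untreated replicates 1 or 3 or treated replicates 1 or 3 (0.44 to 0.48), and MRPS5 without untreated replicates 1, 2 or 3 or treated replicates 1 or 3 (0.17 to 0.25).

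Among the falls, the clearest by adjusted p was MRPL28 (ENSG00000086504.16, chromosome 16, 366969 to 371289, minus strand), a large subunit protein with a bacterial homologue. It measured 86.4, 75.4, 80.3 and 73.7 CPM untreated and 44.9, 52.4, 50.8 and 57.0 CPM treated (-0.62 ± 0.09, adjusted p = 7.63e-06), with a gap between the groups. MRPL43, mitochondria-specific, went from 51.9, 48.6, 58.9 and 45.6 CPM to 35.7, 26.9, 33.6 and 33.9 CPM (-0.64 ± 0.10, adjusted p = 1.11e-05). MRPL43 overlaps TWNK and SEMA4G on the other strand, and MRPL28 overlaps TMEM8A on its own strand. MRPL37, a large subunit protein without bacterial counterpart, went from 97.3, 93.5, 103.5 and 89.4 CPM to 64.1, 50.6, 69.3 and 66.4 CPM without overlap (-0.60 ± 0.10).

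Small subunit proteins that fell included 3 disease genes. MRPS25 changed by -0.84 ± 0.15 (adjusted p = 6.26e-05) and MRPS34 by -0.52 ± 0.10 (adjusted p = 0.000154), and MRPS23 by -0.50 ± 0.15. The lowest change was that of MRPL23 (-0.85 ± 0.32), whose call was lost without each of 5 libraries (untreated replicates 1 and 3, treated replicates 1, 2 and 3), with changes of -1.16 to -0.63. The calls of MRPS25 and MRPS34, and those of MRPL28, MRPL43 and MRPL37, held when libraries were scaled by totals alone. The count of calls depended on single libraries: it was 17 without 6-OHDA alpha-synuclein replicate 1, 30 (7 higher, 23 lower) without replicate 4, and 14 (2 higher, 12 lower) without the 2 libraries that carry several barcode numbers.

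Setting both genotypes side by side, MRPL18 was the only member called higher in both, and 7 were called lower in both: MRPL11, MRPL37, MRPL39, MRPL42, MRPS21, MRPS25 and MRPS27. Some of these rest on single libraries: MRPL39 lost its call in alpha-synuclein cells in 17 of 22 fits with 1 library left out, and MRPL37 and MRPS21 each lost their call in wild-type cells in 5 of 22, with changes of -0.35 to -0.21 and -0.33 to -0.23. Under library totals the wild-type changes of MRPL37 (0.01) and MRPS21 (0.00) were slightly above 0 and not called. None was lower in wild-type and higher in alpha-synuclein cells, and 21 were called in neither. The changes had the same sign in 35 of 67 members, and their correlation over the 67 was 0.287 (no library is shared, but members are not independent of each other). These counts and this correlation were taken over the members only and not over all genes. They therefore show nothing particular to the members.

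The interaction asks whether the 6-OHDA change differed between genotypes. It was called for 24 of 67 members, 6 with a higher and 18 with a lower change in alpha-synuclein cells, against 21.6% of all genes (11.2% higher, 10.5% lower). Its median was -0.21 in the members and -0.01 over all genes. Lane lies with 1 of the 4 groups and cannot be told apart from it. Under library totals the split was nearly unmoved, at 7 and 17, and 23 of the 24 calls were kept, MRPL10 being the exception.

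Of the called members 3 rose in wild-type and fell in alpha-synuclein cells, likewise counted over the members only. MRPL4, a large subunit protein near the polypeptide tunnel, stood at 63.0, 95.8, 71.7 and 78.1 CPM and 94.1, 104, 95.8 and 94.5 CPM in untreated and treated wild-type cells. In alpha-synuclein cells it stood at 85.4, 72.3, 93.9 and 78.1 CPM and 55.5, 52.04, 60.4 and 57.0 CPM. Treated alpha-synuclein libraries lay below all others, and the treated wild-type libraries overlapped only the highest untreated one, with changes of 0.33 and -0.55 and an interaction of -0.88 ± 0.15 (adjusted p = 0.000664). The wild-type rise lost its call without treated replicate 2 (0.25), while the interaction kept its call in every alternative run for it.

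MRPS12, at 22.1, 18.7, 24.9 and 18.5 CPM in untreated alpha-synuclein cells, was at 16.8, 16.5, 17.6 and 17.3 CPM after 6-OHDA, just below the untreated range, and its interaction was -0.96 ± 0.17 (adjusted p = 0.000902). The interaction kept its call in every alternative run for it, but the fall in alpha-synuclein cells (-0.30, adjusted p = 0.0435) did not: it lost its call in 17 of 22 fits with 1 library left out, was -0.02 under library totals and was 0.07 when all libraries were thinned to the smallest total. MRPS12 overlaps SARS2 on the other strand. MRPS18A, the third, had changes of 0.27 and -0.29 and an interaction of -0.56 ± 0.12. Its wild-type rise lost its call without treated replicates 1 or 3 (0.24 in both cases), and its change in alpha-synuclein cells was 0.00 under library totals.

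In the other direction, MRPS30 did not share its wild-type fall with alpha-synuclein cells. There it measured 49.1, 87.1, 59.3 and 63.3 CPM untreated and 67.6, 58.9, 65.8 and 81.8 CPM treated, overlapping ranges with a change of 0.09 ± 0.14, though under library totals MRPS30 (0.38) and MRPS31 (0.31) were called higher there. The interaction was 1.13 ± 0.20 (adjusted p = 0.000964). MRPL42 fell in both but by less in alpha-synuclein cells, from 189, 292, 219 and 219.7 CPM to 166, 176, 166 and 229 CPM (-0.32, interaction 0.80 ± 0.17, adjusted p = 0.00306). These ranges overlap, since treated replicate 4 stood at 229 CPM, and the call in alpha-synuclein cells was lost without each of 4 libraries (untreated replicate 2, treated replicates 1, 2 and 3) and under library totals (-0.03). With 1 library left out its change ran from -0.44 to -0.18. MRPS31 (interaction 0.63), MRPS14 (0.72), MRPL13 (0.67) and MRPL47 (0.53) likewise had a fall called in wild-type cells only and a positive interaction. The interactions of MRPL13 and MRPL47 lost their calls in 7 and 6 of 22 fits with 1 library left out, and that of MRPS14 without untreated wild-type replicate 4 (0.66) or treated alpha-synuclein replicate 4 (0.50). Beside the 3 members that turned, MRPL28 (interaction -0.64 ± 0.13, adjusted p = 0.00179) and MRPL55 (-0.66 ± 0.14, adjusted p = 0.00297) led the negative interactions by adjusted p, and MRPL23 (-1.59 ± 0.47) had the lowest value. The MRPL23 value rests on treated wild-type replicate 2, at 25.7 CPM against 7.91 to 10.9 CPM in the other libraries of its group: without it the interaction was -1.04 and not called. The highest interaction was that of MRPL30 (1.21 ± 0.95), not called.

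Members of known special role were also followed. MRPL10 and MRPL11 form the stalk base that recruits translation factors. MRPL10 changed by 0.51 ± 0.18 in wild-type and -0.20 ± 0.18 in alpha-synuclein cells, and MRPL11 by -0.40 ± 0.16 and -0.50 ± 0.15. MRPL58, a peptidyl-tRNA hydrolase that releases stalled chains, changed by 0.38 ± 0.39 and 0.49 ± 0.39, neither called. MRPS36, the protein outside the ribosome, changed by 0.65 ± 0.28 and 0.39 ± 0.25, neither called. Of the MRPS18 paralogues, MRPS18C changed by 0.36 ± 0.23 in wild-type cells without a call, beside its rise in alpha-synuclein cells, and MRPS18A turned as given above.

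**Figure D2:**
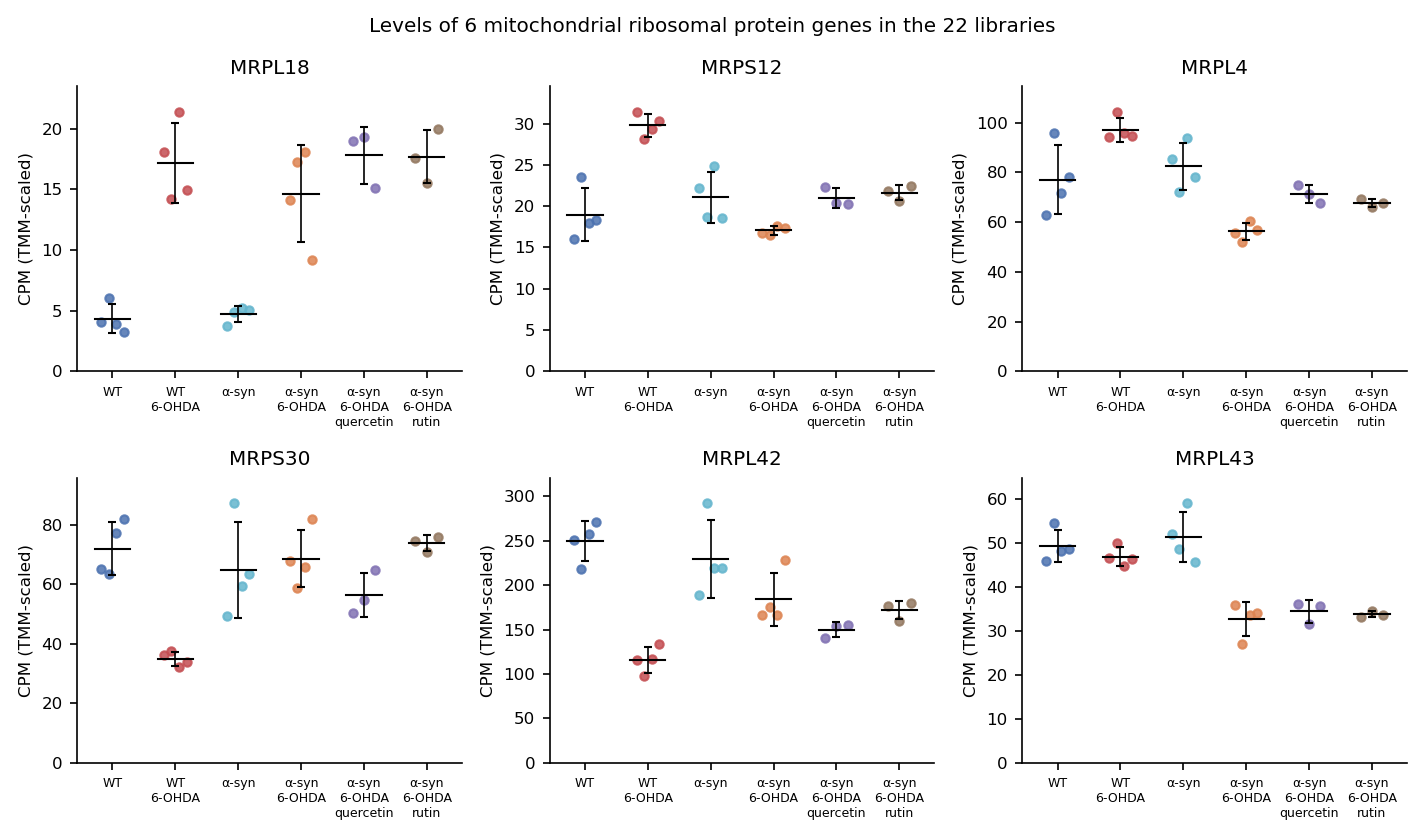
TMM-scaled CPM (y axis, from 0) of 6 members in each of the 22 libraries by group (x axis), with points for libraries, horizontal bars for means and whiskers for 1 SD. MRPL18 is higher in all 4 treated groups, MRPS12 and MRPL4 are highest in 6-OHDA wild-type cells, MRPS30 is lowest there (32.1 to 37.5 CPM), and MRPL43 is lower in the 3 treated than in the untreated alpha-synuclein group.

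Genotype was also compared directly. Without 6-OHDA no member was called between alpha-synuclein and wild-type cells by edgeR's quasi-likelihood test, against 0.651% of all genes. DESeq2 (which gave 7 members no adjusted p) and limma-voom called no member either. In edgeR's test 4 of 67 members were at an unadjusted p under 0.05, against 1534 of 16601 genes. The median change was 0.05, and the extremes were MRPL58, the rescue factor of stalled mitoribosomes, at -0.95 ± 0.37, and MRPL1 at 0.80 ± 0.47, both low in counts. The 4 were MRPS2 (0.48), MRPL53 (0.64), MRPL58 and MRPL23 (0.76), and the libraries of the groups overlapped for all 67 members, while they did not for 5.34% of all genes.

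With 6-OHDA in both, 9 members were higher and 17 lower in alpha-synuclein cells, against 27.3% of all genes (14.4% higher, 12.9% lower), and the lanes differ. Libraries did not overlap for 8 and 17 members, against 24.1% of all genes. MRPS30 was higher by 0.98 ± 0.15 (adjusted p = 0.000117), MRPL42 by 0.68 ± 0.13 and MRPS31 by 0.60 ± 0.12, followed by MRPL47 (0.56) and MRPS14 (0.62). MRPL4 differed by -0.79 ± 0.11 (adjusted p = 5.16e-05), MRPS12 by -0.81 ± 0.12 and MRPL28 by -0.59 ± 0.09, followed by MRPL55 (-0.59) and MRPS18A (-0.45). The extremes were MRPL30 (1.61 ± 0.70) and MRPL58 (-0.85 ± 0.40), neither called. Library totals gave 9 and 18 and kept all 26 calls. This comparison shares its libraries with the treatment comparisons above, so its values are not separate evidence of the interaction.

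The combined model set 6-OHDA alpha-synuclein cells against untreated wild-type cells, again across lanes. Here 5 members were higher and 15 lower, with 44.9% of all genes called (21.8% higher, 23.1% lower). Libraries did not overlap for 4 and 11 members, against 36.8% of all genes. MRPL18 stood 1.74 ± 0.22 higher (adjusted p = 1.75e-06), followed by MRPL3 (0.89 ± 0.17) and MRPS28 (0.66 ± 0.18), then MRPL32 (0.60) and MRPS18C (0.61). MRPL32 lost its call without untreated wild-type replicates 2 or 3 or treated replicate 1, and MRPS18C without untreated replicate 2 or treated replicates 1 or 2. Their changes ran from 0.48 to 0.83 and from 0.51 to 0.76 with 1 library left out. MRPL28 (-0.57 ± 0.09), MRPL43 (-0.58 ± 0.10) and MRPL37 (-0.53 ± 0.10) led the lower ones by adjusted p, then MRPS25 (-0.74) and MRPS27 (-0.51). The lowest change was that of MRPL36 (-0.89 ± 0.24). Under library totals the split was 20 and 6, with 11 of the 20 calls kept.

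A ratio between members does not depend on the scaling of libraries. The summed CPM of bacterial homologues over that of mitochondria-specific members was 0.931 ± 0.0177 in untreated wild-type cells (SD, n = 4) and 1.29 ± 0.0225 after 6-OHDA, with ranges of 0.908 to 0.948 and 1.25 to 1.31. In alpha-synuclein cells it was 0.975 ± 0.0554 and 1.078 ± 0.0537, and the ranges of 0.895 to 1.02 and 1.01 to 1.14 overlapped. The only treated alpha-synuclein library inside the untreated range was replicate 4 (1.01), the library that stood apart. MRPL42 weighs heavily in the denominator: without it the means were 1.203 and 1.49 in wild-type, and 1.23 and 1.36 in alpha-synuclein cells, in the same order. Without MRPL42 the ranges did not overlap in either genotype. They were 1.17 to 1.25 and 1.47 to 1.51 in wild-type cells. In alpha-synuclein cells, across lanes, they were 1.19 to 1.27 and 1.31 to 1.41. The large to small subunit ratio was 2.01 ± 0.0762 and 1.86 ± 0.0545 in wild-type cells, and 2.01 ± 0.0552 and 1.94 ± 0.0685 in alpha-synuclein cells. These sums describe the libraries and carry no test.

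**Figure D3:**
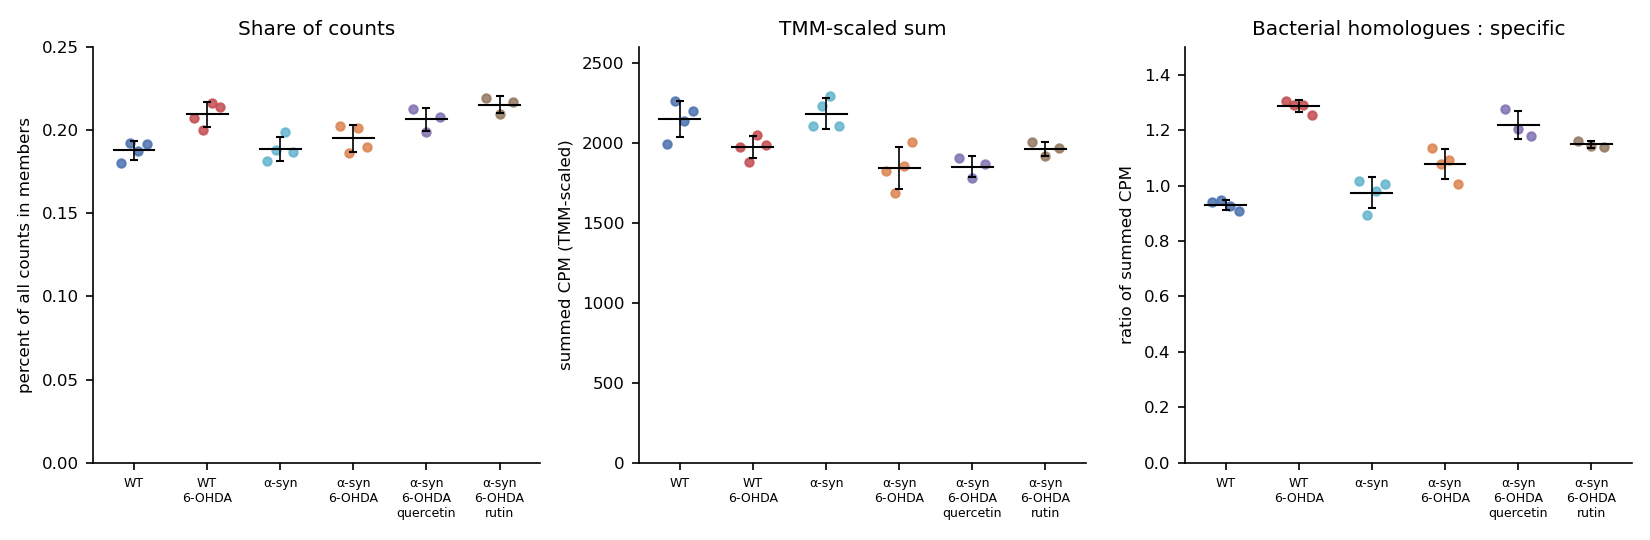
The share of all counts in members (left), their TMM-scaled sum (middle) and the ratio of summed CPM of bacterial homologues to mitochondria-specific members (right) in each library by group, with means and 1 SD, all axes from 0. The share is higher in treated wild-type cells while the scaled sum is lower, and the ratio separates treated wild-type libraries (1.25 to 1.31) from untreated ones (0.908 to 0.948).

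Other genes of mitochondrial translation were counted beside the 52% of all genes called in wild-type cells (25.8% higher, 26.2% lower) and the 47.1% in alpha-synuclein cells (22.9% higher, 24.2% lower), and a list near or below these shares shows nothing particular to it. The lists here and in the next paragraph were counted with TMM scaling only and not recounted under library totals. Their splits into higher and lower may move with the scaling, as those of the members did. Of 4 tested mitoribosome proteins that carry other names, DAP3, a GTP-binding protein of the small subunit, rose in both genotypes (0.86 ± 0.09 and 0.68 ± 0.09). PTCD3 fell in wild-type cells (-0.51 ± 0.14) and AURKAIP1 in alpha-synuclein cells (-0.61 ± 0.10), with interactions of 0.72 ± 0.19 (adjusted p = 0.00889) and -0.84 ± 0.15 (adjusted p = 0.000874) in edgeR's quasi-likelihood test. Among 23 mitoribosome assembly factors 2 rose and 10 fell in wild-type cells, and 0 rose and 7 fell in alpha-synuclein cells. FASTKD2, an RNA-binding protein needed for the large subunit, changed by -1.003 ± 0.16 in wild-type cells, and the helicase DHX30 by -0.63 ± 0.08 in alpha-synuclein cells.

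Of 16 translation factors 3 rose and 7 fell in wild-type, and 3 rose and 5 fell in alpha-synuclein cells. The elongation factor GFM1 changed by -1.02 ± 0.09 and -0.42 ± 0.09, and the initiation factor MTIF2 by -0.96 ± 0.11 in wild-type cells. Of 18 mitochondrial aminoacyl-tRNA synthetase genes 3 rose and 5 fell in wild-type, and 2 rose and 5 fell in alpha-synuclein cells. Of 13 mitochondrial chaperones and proteases 5 rose and 3 fell, and 3 rose and 2 fell, in the same order. Of 8 genes of mitochondrial transcription and nucleoids 0 rose and 2 fell, and 1 rose and 2 fell. The mRNAs that mitoribosomes translate fell in wild-type cells in 13 of 13 cases (median -1.18), and in 5 of 13 in alpha-synuclein cells (median -0.49). They were higher in alpha-synuclein than in wild-type cells under 6-OHDA in 13 of 13, across lanes, against 14.4% of all genes. Their interaction was called higher for 4 of 13, against 11.2% of all genes. Without 6-OHDA 0 of 13 were called between the genotypes, with a median of 0.30. Polyadenylated libraries hold only the adenylated part of mitochondrial transcripts. Among 16 genes tied to the integrated stress response 13 rose and 1 fell in wild-type, and 12 rose and 1 fell in alpha-synuclein cells. This list, like the others, was chosen with earlier results of these data known. Of 9 regulators of mitochondrial biogenesis 3 rose and 1 fell in wild-type, and 2 rose and 1 fell in alpha-synuclein cells. Of these, GABPA, an ETS factor, changed by -1.15 ± 0.14 in wild-type cells with an interaction of 0.94 ± 0.18, and YY1 by 0.53 ± 0.12 and 0.57 ± 0.11.

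The last comparisons asked whether quercetin or rutin altered the members in 6-OHDA alpha-synuclein cells, all on lane 2. No member was called for quercetin by edgeR's quasi-likelihood test, against 2.53% of all genes (0.56% higher, 1.97% lower). At an unadjusted p under 0.05 in that test were 11 of 67 members and 2802 of all 16601 genes. DESeq2 called 1 member, MRPL4 (0.35, adjusted p = 0.0417). Libraries did not overlap for 7 higher and 3 lower members, against 13.5% of all genes. For rutin edgeR's quasi-likelihood test called no member and 0% of all genes. There 8 of 67 members and 1790 of 16601 genes were at an unadjusted p under 0.05. DESeq2 called 288 genes for rutin and no member, but gave 53 of the 67 members no adjusted p, and 17 of them none for quercetin. Libraries did not overlap for 6 higher members and 0 lower, against 8.7% of all genes. Median changes were 0.05 and 0.09, against -0.02 and -0.01 over all genes. With quercetin the extremes, neither called, were MRPL30 (-1.55 ± 0.64) and MRPS35 (0.66 ± 0.46). With rutin the extremes, neither called, were MRPL54 (-0.63 ± 0.63) and MRPL1 (1.30 ± 0.47).

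MRPL4 was the nearest to a call. Its levels were 75.1, 71.4 and 67.6 CPM with quercetin and 69.3, 66.1 and 67.5 CPM with rutin, all above the 55.5, 52.04, 60.4 and 57.0 CPM of 6-OHDA alone, with only the 75.1 CPM library inside the range of untreated alpha-synuclein cells (72.3 to 93.9 CPM) and the others below it. The changes were 0.34 (approximate 95% interval 0.12 to 0.56, adjusted p = 0.104 in edgeR's quasi-likelihood test) and 0.26 (0.04 to 0.48, adjusted p = 0.398). MRPS12 had a like pattern, at 22.4, 20.4 and 20.2 CPM with quercetin and 21.9, 20.6 and 22.4 CPM with rutin, with changes of 0.29 (0.04 to 0.54) and 0.33 (0.07 to 0.59). The compound changes and the 6-OHDA change share the libraries of 6-OHDA alone, with opposite sign. Low values there by chance would give both a fall and such a rise, so the pattern is not separate evidence of a return.

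For 3 members much changed by 6-OHDA, the intervals of the compound changes did not reach the size of the 6-OHDA change. MRPL18 stayed high, at 19.0, 19.3 and 15.1 CPM with quercetin and 17.6, 15.5 and 19.9 CPM with rutin. Its differences from 6-OHDA alone were 0.32 (-0.09 to 0.73) and 0.30 (-0.12 to 0.73). MRPL28 changed by 0.08 (-0.11 to 0.27) and 0.04 (-0.16 to 0.23), and MRPL43 by 0.06 (-0.14 to 0.26) and 0.04 (-0.17 to 0.25), beside 6-OHDA changes of -0.62 and -0.64.

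Quercetin and rutin, which differ by the sugar that rutin carries, were compared as 1 pair, at doses that the labels do not state. No member differed by call in edgeR's quasi-likelihood test, against 0.00602% of all genes. At an unadjusted p under 0.05 were 2 of 67 members and 1481 of 16601 genes. Libraries did not overlap for 10 members, all lower with quercetin, against 21.7% of all genes, and p-values were adjusted over all tested genes. The member with the smallest p was MRPS30, at 50.2, 54.5 and 64.7 CPM with quercetin and 74.4, 70.8 and 75.9 CPM with rutin, a difference of -0.38 (-0.69 to -0.07, adjusted p = 0.471 in edgeR's quasi-likelihood test). For MRPL18 the difference was 0.02 (-0.41 to 0.46), for MRPL4 0.08 (-0.16 to 0.31) and for MRPL42 -0.20 (-0.47 to 0.08). The extremes were MRPL30 (-1.22 ± 0.70) and MRPL58 (0.89 ± 0.45). Such intervals do not show that the compounds act alike. The ratio of bacterial homologues to mitochondria-specific members was 1.22 ± 0.0506 with quercetin and 1.15 ± 0.0118 with rutin (SD, n = 3), with ranges of 1.18 to 1.28 and 1.14 to 1.16, beside 1.078 ± 0.0537 for 6-OHDA alone.

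**Figure D4:**
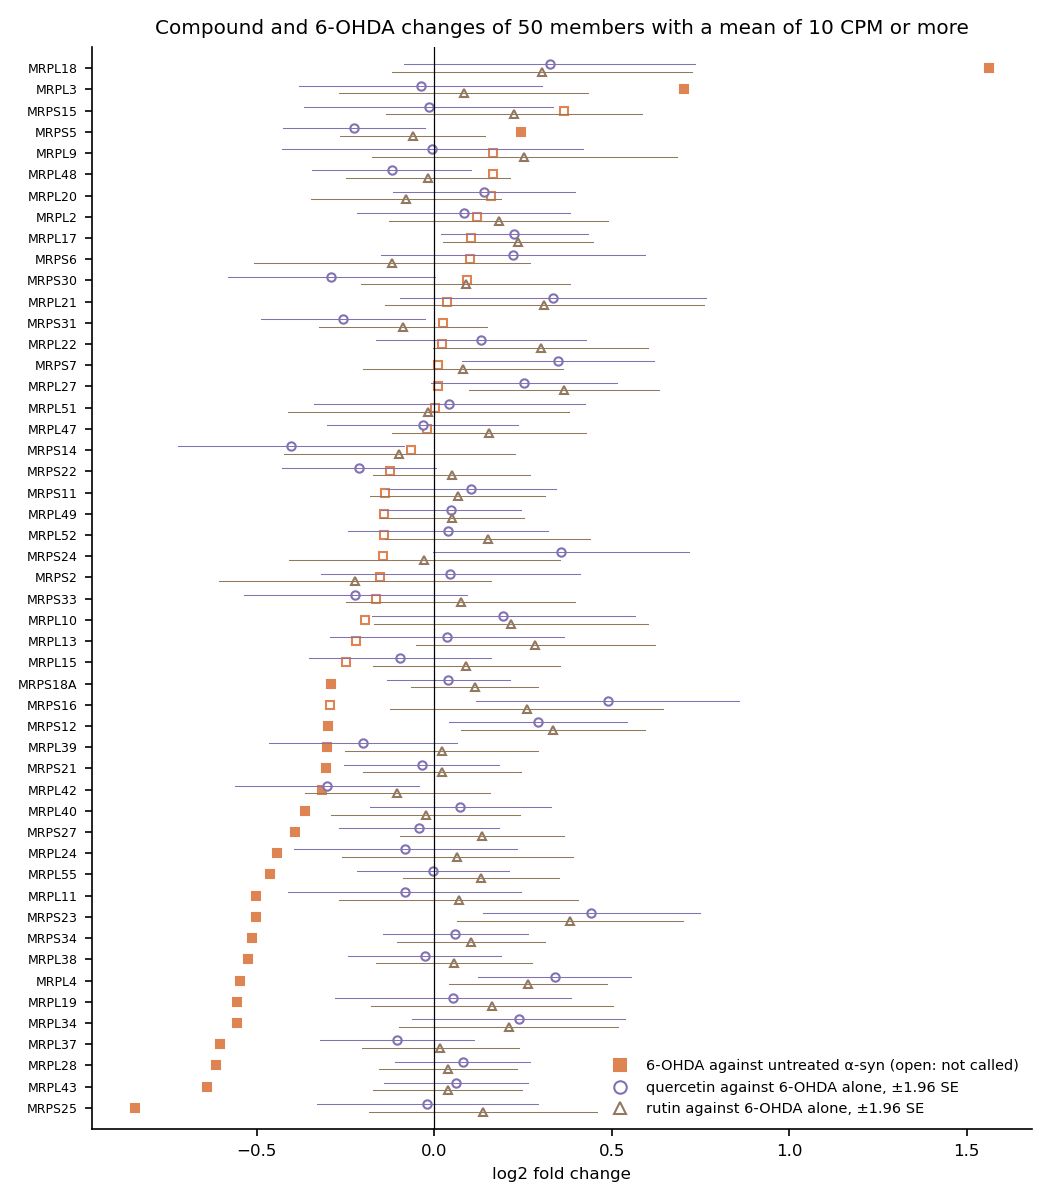
Log2 fold change (x axis) of the 50 members with a mean of at least 10 CPM over all libraries (y axis, ordered by the 6-OHDA change), for 6-OHDA against untreated alpha-synuclein cells (squares, filled where called) and for quercetin (circles) and rutin (triangles) against 6-OHDA alone with approximate 95% intervals. No compound symbol is filled, and the quercetin and rutin values of MRPL18 (0.32 and 0.30) lie near 0 beside its 6-OHDA change of 1.56. The compound and 6-OHDA changes share the libraries of 6-OHDA alone, with opposite sign.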

How the data were processed

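The members and the gene lists were chosen with earlier results of these data known, and the members printed in full, the promoters and the motifs after their values were seen. Values deposited by the authors were estimated counts per gene, in whole numbers. Per the submitters' processing notes they used Trimmomatic 0.38, kallisto 0.46.2 and GRCh38. Per the labels' protocols the RNA was polyadenylated. In the re-analysis 34679 genes in 22 libraries of 6 groups were filtered (filterByExpr, minimum count 10), leaving 16601 genes, and scaled by TMM. One edgeR quasi-likelihood model over all 22 libraries (edgeR 4.0.16, R 4.3.3) gave 9 comparisons, with Benjamini-Hochberg adjustment over all tested genes and calls at 0.05. Alternatives used DESeq2 1.42.0 and limma 3.58.1 (voom). Values were given for the 5 called members with the smallest adjusted p in each direction of a comparison, the extremes of change and a set of members of known role, and up to 3 genes of each related list. Other members named were chosen after their values were seen. Gene positions are from GENCODE on GRCh38 and matched all 70 members.

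On simulated data for 6-OHDA in wild-type cells (16159 genes), the fit recovered 66.1% of the 192 changed genes. All genes were given the same spread there and few were changed, whereas 52% of genes were called in the real comparison. The recovered shares therefore describe the simulation and not that comparison. The fit recovered 42.7% of 2-fold and 89.6% of 4-fold changes, and 8 of 135 calls were false. For 2-fold changes it was 19.1% at a mean count under 100 and 65.3% above, so a missed call does not show that a low member was unchanged. This recovery fell short of the share of 0.8 over all changes first required of it, and the requirement was then relaxed with the fit left as it was.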

Additional observations from a re-analysis of the deposited data

Results flagged for a closer look

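Among 68 sets of 4 library values tested for 1 library far from the rest, 3 had one, and chance gives about 1 in 20. The large to small subunit ratio was 1.89 in untreated wild-type replicate 1 and 2.04 to 2.06 in the other libraries of that group. MRPL4 was at 104.4 CPM in 6-OHDA wild-type replicate 2 and at 94.1 to 95.8 CPM in the others. MRPL42 was at 229 CPM in 6-OHDA alpha-synuclein replicate 4, the library that stood apart, and at 166 to 175.5 CPM in the others.

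The 6-OHDA change differed between genotypes for 24 members by the interaction term of edgeR's quasi-likelihood test, given as the change in alpha-synuclein minus that in wild-type cells. It was higher for MRPS30 (1.13), MRPL42 (0.80), MRPS14 (0.72), MRPL13 (0.67), MRPS31 (0.63) and MRPL47 (0.53). It was lower for the large subunit members MRPL23 (-1.59), MRPL53 (-1.36), MRPL4 (-0.88), MRPL19 (-0.78), MRPL10 (-0.71), MRPL34 (-0.70), MRPL55 (-0.66), MRPL28 (-0.64), MRPL38 (-0.59), MRPL43 (-0.57) and MRPS18A (-0.56). It was lower for the small subunit members MRPS2 (-1.05), MRPS12 (-0.96), MRPS16 (-0.91), MRPS23 (-0.83), MRPS24 (-0.70), MRPS34 (-0.54) and MRPS11 (-0.49). With 1 library left out, the calls of MRPL10, MRPS11 and MRPS24 were lost in 19, 16 and 15 of 22 fits. Those of MRPL13, MRPL47 and MRPS14 were lost in 7, 6 and 2. The MRPL23 call was lost without 6-OHDA wild-type replicate 2, where the interaction was -1.04. Lane cannot be told apart from the treated alpha-synuclein group in any of them.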

How the results depend on the processing

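With 1 of 22 libraries left out, the number of members called ran from 24 to 31 for 6-OHDA in wild-type cells, from 17 (without treated replicate 1) to 30 (without treated replicate 4) in alpha-synuclein cells, from 19 to 27 for the interaction, from 20 to 29 for alpha-synuclein under 6-OHDA and from 15 to 27 for the combined model. It was 0 for alpha-synuclein in untreated cells and for both compounds. Without the 2 untreated alpha-synuclein libraries with several barcode numbers, 14 members were called for 6-OHDA in alpha-synuclein cells and 15 for the interaction. Thinned to the smallest total, an alternative chosen after seeing the data, 17 were called for 6-OHDA in alpha-synuclein cells and MRPS12 changed sign (0.066, adjusted p = 0.798). DESeq2 and scaling by library totals each called 1 member for quercetin, MRPL4. The cause of these differences was not tested, beyond the smaller number of libraries or counts where these were removed. A fit with the replicate number as a block gave 29, 25 and 21 calls for 6-OHDA in wild-type cells, in alpha-synuclein cells and for the interaction, and same-numbered libraries did not deviate together in any of 51 pairs (correlations of -0.138 to 0.0776). A term for lane was not run, since lane could not be fitted beside the groups. Depth limits the members of low level: 22 of 70 had a mean under 10 CPM in untreated wild-type cells.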
